A study of Homo sapiens with 18 samples.

Results

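C4-2 cells were compared with LNCaP cells in the absence of added androgen. LNCaP is an androgen-dependent prostate cancer cell line from a lymph node metastasis, and C4-2 is a castration-resistant subline that was derived from LNCaP cells grown in castrated mice. The comparison used 6 of the 18 RNA-Seq libraries of the series, namely the 3 libraries of LNCaP and the 3 of C4-2 that received scrambled siRNA (siScr) and vehicle control. Libraries were taken by their sample titles, because the cell line field of the 3 C4-2 vehicle libraries names LNCaP. According to the methods, all cells were kept in hormone-depleted medium, were transfected with an siRNA pool at 10 nM and were exposed for 72 h. The vehicle is not settled, since the methods name 0.1% DMSO for the siRNA libraries, 0.1% ethanol for R1881 and DMSO at another concentration elsewhere. The other siScr libraries, 3 of each line with the synthetic androgen R1881 (1 nM, 72 h), share no library with the 6 and were used as a second set in which to read the same difference. Neither line carried a knockdown in any of these 12 libraries. Each line is a single cell line, and the labels do not say whether the 3 libraries came from separate cultures, so the p-values measure only the spread between these libraries, which may be technical.

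Androgens are steroid hormones that change transcription through DNA sites called androgen response elements, which are pairs of half-sites of the sequence AGAACA. In luminal prostate cells they raise secretory genes such as KLK3, which encodes prostate-specific antigen. They lower a smaller group that includes UGT2B15 and UGT2B17, enzymes that inactivate androgens by glucuronidation. C4-2 is widely used with LNCaP as a pair because the lines share an origin and differ in their need for androgen. Clustered protocadherins and the KRAB zinc finger genes of chromosome 19 are large families of neighbouring genes, the first coding for cell-surface adhesion proteins and the second mostly for DNA-binding repressors of transposable elements.

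The libraries held 10485096, 20154243 and 17138895 counts in LNCaP and 18185805, 16596790 and 3182604 in C4-2 (replicates 1 to 3). LNCaP replicate 1 and C4-2 replicate 3 stood apart from the rest, with 1.19% and 1.91% of their counts on pseudogenes against 0.56% to 0.68% in the other 4 libraries. The share of counts on mitochondrial genes was 6.14% to 6.60% in LNCaP and 7.10% to 9.08% in C4-2. Over the 3701 autosomal genes called between the lines in the R1881 libraries, each LNCaP vehicle library correlated more with the LNCaP R1881 mean (Pearson's r 0.92 to 0.93) than with the C4-2 R1881 mean (0.70 to 0.71). Each C4-2 vehicle library correlated more with the C4-2 mean (0.93 to 0.95) than with the LNCaP mean (0.69), so the titles and the profiles went together in all 6. Both lines expressed the luminal genes KRT8 (421 to 488 CPM, counts scaled to a common library size, in LNCaP and 255 to 325 in C4-2) and HOXB13 (323 to 371 and 295 to 335). The basal keratin KRT5 was at 0 counts in all 6 libraries, as were the fibroblast marker FAP, the T cell marker CD3D and the neuronal marker ELAVL4. Only 2 of 17 basal, 3 of 10 fibroblast, 1 of 10 immune and 1 of 28 neuroendocrine markers were at 0 throughout. Other members were read, such as CDH3 (46.9 to 51.5 CPM in C4-2) and COL1A1 (17.1 to 38.4 CPM over both lines). PTPRC was at 1.89 to 3.44 CPM in C4-2 and SYT4 at 213 to 232 CPM in LNCaP.

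Of 57439 autosomal genes listed, 16351 passed the filter on low counts and were tested with edgeR's quasi-likelihood F-test. A gene was called when its Benjamini-Hochberg adjusted p was under 0.05 and its log2 fold change (log2FC, C4-2 minus LNCaP) was at least 1 in size. By this rule 1769 genes (10.8% of those tested) were higher in C4-2 and 2049 (12.5%) were lower, 23.4% in all, around a median log2FC over all genes of -0.01. The libraries of the lines did not overlap for 65% of the genes tested. A difference of at least 16-fold was fitted for 435 of the called genes. Of the 3818 calls, 3590 (94.0%) were also made when LNCaP replicate 1 and C4-2 replicate 3 were both left out, and 2793 held in that fit and in all 6 fits that left out 1 library. Protein-coding genes were called higher (10.8%) and lower (10.8%) equally often, whereas long noncoding RNA genes were called higher for 10.97% and lower for 20.2% of the 2371 tested. In the R1881 libraries, 10.9% of 15895 autosomal genes were higher in C4-2 and 12.4% were lower. Of the 3400 vehicle calls that were also tested there, 3280 (96.5%) had the same sign, and the 2386 genes called in both sets made up 62.5% of the vehicle calls and 64.5% of the R1881 calls.

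Several genes were read at many CPM in one line and at almost none in the other. CPM values given here are scaled by edgeR's TMM factors. The growth factor gene HGF, whose product is the ligand of the MET receptor, had 0 counts in all 3 LNCaP libraries and 64.5, 65.6 and 65.4 CPM in C4-2. Against a floor of 3 counts over the LNCaP libraries, HGF was at least 1038-fold higher in C4-2. MET itself was at 1.04, 2.42 and 2.64 CPM in LNCaP and at 14.9, 17.99 and 20.2 CPM in C4-2 (log2FC 3.05 ± 0.28 SE, adjusted p = 8.44e-06), so ligand and receptor transcripts were both higher in C4-2 and neither set of libraries overlapped. The retinaldehyde dehydrogenase gene ALDH1A1 was at 0, 0.15 and 0.06 CPM in LNCaP and at 71.5, 74.1 and 81.8 CPM in C4-2 (log2FC 9.68 ± 0.22, adjusted p = 8.17e-10). CDH3, which encodes P-cadherin, had 2 counts over the LNCaP libraries and 1842 over the C4-2 libraries, a ratio of 1175 with a 95% counting interval from 325 to 9706. The semaphorin gene SEMA3E averaged 0.21 ± 0.13 CPM in LNCaP and 109 ± 7.81 CPM in C4-2 (SD, n = 3), and PREX1, an activator of the GTPase Rac, was at 0.19 to 0.82 CPM and at 133 to 144 CPM. Also among the 12 largest increases were LINC00221, SLFN13, AC008163.1, ACADL, DENND2D and RND3, and LINC00221, SLFN13 and AC008163.1 had 0 counts in every LNCaP library.

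Among the decreases, the ETS transcription factor gene ETV1 was at 294, 312 and 286 CPM in LNCaP and at 0.11, 0.06 and 0 CPM in C4-2. Its counts were 14310 over the LNCaP libraries and 3 over the C4-2 libraries, a ratio of 3740 (95% counting interval 1280 to 18139). PEG3, an imprinted zinc finger gene of chromosome 19, was at 1059, 1074 and 1027 CPM in LNCaP and at 0.28, 0.43 and 0.95 CPM in C4-2 (log2FC -11.32 ± 0.18, adjusted p = 1.03e-10). No C4-2 library reached 1 CPM for ETV1 or PEG3. OR51E1, an olfactory receptor gene also known from prostate tissue, was at 22.2, 25.7 and 28.1 CPM in LNCaP and had 0 counts in C4-2, which made it at least 323-fold lower there. LRRN1, a leucine-rich repeat membrane protein gene, was at 211 to 215 CPM in LNCaP and at 0.72, 0.73 and 0 CPM in C4-2. TMEFF2, a transmembrane proteoglycan gene of prostate and brain, was at 180 to 189 CPM and at 0.32 to 0.80 CPM. MBNL2, a splicing regulator, had 1223 counts over the LNCaP libraries and 2 over the C4-2 libraries, a ratio of 479 (132 to 3964). The others of the 12 largest decreases were MICU3, OPRK1, RIPOR2, PCDHB5, DTNA and PCDHGB1.

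**Figure D1:**
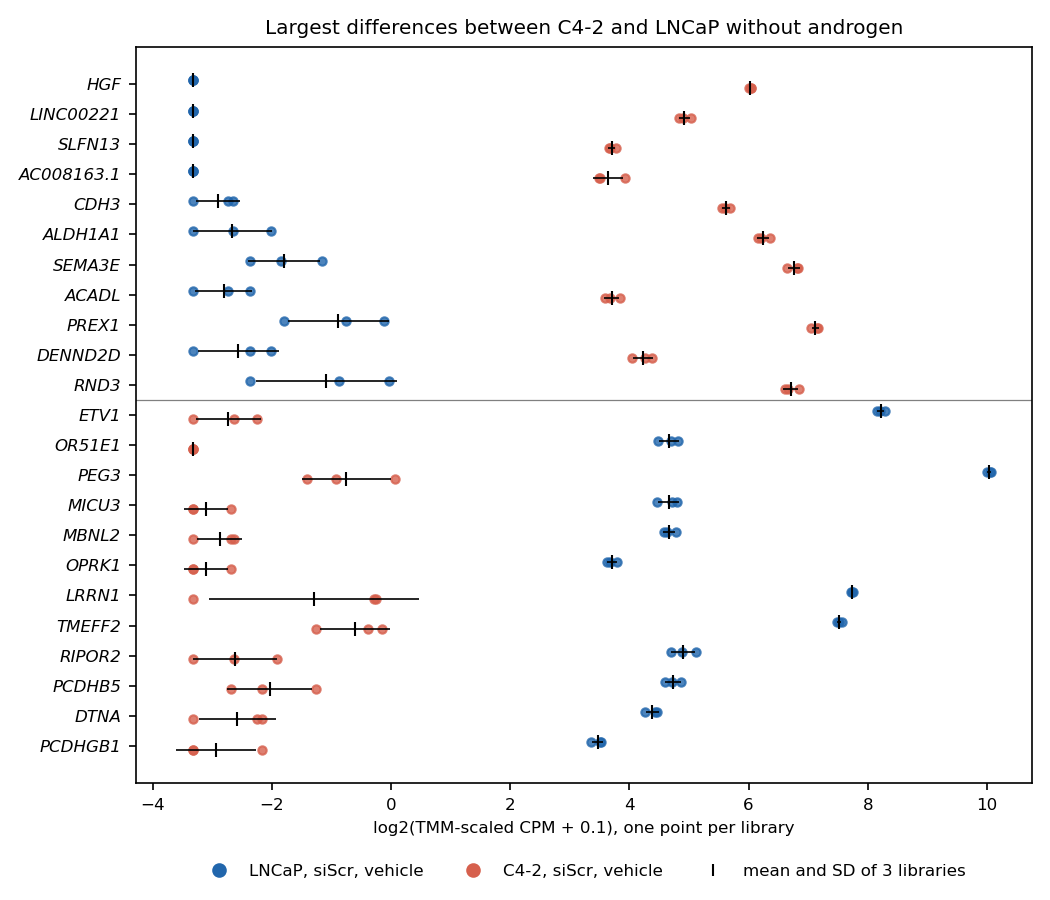
Points give log2(TMM-scaled CPM + 0.1) in each library for 11 of the 12 largest increases (top) and the 12 largest decreases (bottom) in C4-2, with LNCaP in blue, C4-2 in red, and the mean and SD of 3 libraries as a tick and bar. The lines were apart by several log2 units for each of the 23 genes, and HGF, LINC00221, SLFN13, AC008163.1 (LNCaP) and OR51E1 (C4-2) lay at 0 CPM in all 3 libraries of one line.

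Genes at the floor of one line were counted separately. At most 3 counts over the 3 LNCaP libraries and at least 1 CPM in each C4-2 library were found for 57 genes, 28 of them protein-coding, of which 24 had 0 counts in LNCaP. The reverse held for 72 genes, 51 of them protein-coding, of which 20 had 0 counts in C4-2. Besides those named above, the LNCaP floor held DPP10, RBM46, CNTN3 and ILDR1, and the C4-2 floor held OR51E2 (at least 125-fold lower), DNAJC15 (at least 104-fold lower), CA2, IGF2BP1 and APOBEC3F. DNAJC15 encodes a mitochondrial co-chaperone, CA2 a carbonic anhydrase and APOBEC3F a cytidine deaminase. With R1881, 51 genes of each floor set passed the filter, and all of these were called there in the same direction. A gene that stayed near 0 in one line could pass only through the other line. The shared direction was thus largely set by the filter and is no separate support.

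Androgen-induced genes did not move as one group between the lines. Of 29 tested, 4 were higher in C4-2, 5 were lower and 20 were not called, with a median log2FC of 0.10. Among all genes tested, 10.8% were higher and 12.5% lower. KLK3 was at 388, 354 and 365 CPM in LNCaP and at 23.2, 26.1 and 20.2 CPM in C4-2, 15.6-fold lower (log2FC -3.96 ± 0.10, adjusted p = 1.34e-09). Its neighbour KLK2, another secreted kallikrein, was at 31.4, 28.9 and 28.9 CPM in LNCaP and at 28.9, 29.4 and 23.7 CPM in C4-2 (log2FC -0.10 ± 0.11, adjusted p = 0.596), and the libraries overlapped. TMPRSS2, a membrane serine protease, had a log2FC of 0.08 ± 0.09, and FKBP5, a steroid receptor co-chaperone, of 0.10 ± 0.06, and neither passed the test. ADAMTS1, a secreted metalloprotease, was lower in C4-2 (811 to 871 CPM in LNCaP and 53.6 to 70.1 CPM in C4-2), as were TRPM8, a cold-sensing ion channel (log2FC -1.51), and ALDH1A3 (-1.36). ABCC4, an efflux transporter, was at 152 to 160 CPM in LNCaP and at 458 to 512 CPM in C4-2 (log2FC 1.61 ± 0.08).

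With R1881 the same genes stood differently against each other. On a scaling over the 12 siScr libraries, KLK3 averaged 4619 ± 186 CPM in LNCaP and 404 ± 19.7 CPM in C4-2, and the line difference of -3.50 was again a called decrease. KLK2 averaged 883 ± 64.7 CPM and 261 ± 7.66 CPM with R1881 (log2FC -1.74), where the vehicle libraries of the lines had overlapped. In a single fit to the 12 libraries, the line difference changed between vehicle and R1881 by at least 1 on the log2 scale, with an adjusted p under 0.05, for 761 of 17464 autosomal genes (4.36%). For KLK2 this change had an adjusted p of 1.42e-08 and for KLK3 of 0.00664.

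The promoter of KLK3, which had the largest difference among the androgen-induced genes, is shown with the half-site AGAACA in capitals (chr19:50854665-50854964, plus strand, GRCh38.p14, RefSeq, 250 bases before to 50 after the start).
KLK3: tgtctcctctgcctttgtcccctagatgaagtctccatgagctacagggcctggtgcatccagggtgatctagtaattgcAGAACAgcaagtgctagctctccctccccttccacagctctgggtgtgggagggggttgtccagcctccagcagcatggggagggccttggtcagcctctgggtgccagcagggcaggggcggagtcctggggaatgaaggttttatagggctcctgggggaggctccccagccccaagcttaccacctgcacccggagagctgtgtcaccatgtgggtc
A half-site (AGAACA or its reverse complement TGTTCT) was found in 3 of the 21 androgen-induced genes with a promoter entry (14.3%), against 8.95% of 10509 promoters of autosomal genes tested. The shares were 9.74% for genes higher in C4-2 and 11% for genes lower in C4-2. The match describes letters in this window and was not tested as a binding site.

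Androgen-lowered genes lay mostly on the low side in C4-2. Of 15 tested, 3 were higher, 7 were lower and 5 were not called, with a median log2FC of -0.91 against -0.01 over all genes. The shares over all genes tested were 10.8% higher and 12.5% lower. UGT2B17 was at 644, 641 and 667 CPM in LNCaP and at 34.0, 29.99 and 38.5 CPM in C4-2 (log2FC -4.27 ± 0.10, adjusted p = 8.73e-10). UGT2B15 was at 1217, 1190 and 1159 CPM and at 101, 91.8 and 127 CPM (log2FC -3.49 ± 0.12), while UGT2B28 was 3.82-fold higher in C4-2 (2.64 to 3.51 CPM and 11.7 to 12.5 CPM). UGT2B28 averaged more with R1881 than with vehicle in both lines, so its listing as androgen-lowered does not hold in these libraries. The UGT2B genes are close paralogs, so reads shared between copies are uncertain. OPRK1, the kappa opioid receptor gene, had 611 counts in LNCaP and 1 in C4-2. MET and FRY, a scaffold gene of chromosome 13, were the other members that were higher in C4-2, FRY at 11.8 to 13.2 CPM and 105 to 119 CPM. Of 20 tested genes of steroid synthesis and inactivation, 4 were higher and 4 lower, whereas with R1881 1 was higher and 9 were lower. With R1881 the shares over all genes were 10.9% higher and 12.4% lower. The list shares UGT2B10, UGT2B11, UGT2B15, UGT2B17 and UGT2B28 with the androgen-lowered genes. HSD3B1, which makes androstenedione from dehydroepiandrosterone, was at 0.28 to 0.79 CPM in LNCaP and at 2.16 to 5.05 CPM in C4-2 (log2FC 2.58 ± 0.43, adjusted p = 4.66e-04). CYP3A5, a steroid-oxidising cytochrome, was 5.83-fold lower.

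Of 23 luminal identity genes, 4 were higher and 3 lower (median 0.08), beside 10.8% higher and 12.5% lower over all genes tested. The counts of this list and of the lists before and after it were not tested against these shares. The keratin gene KRT19 was at 2.45, 2.12 and 2.41 CPM in LNCaP and at 20.3, 24.9 and 17.4 CPM in C4-2 (log2FC 3.18 ± 0.18, adjusted p = 3.35e-07). EPCAM (log2FC 1.52), CLDN3 (2.62) and MSMB (2.78) were also higher, the last at no more than 1.83 CPM in any library. The prostatic acid phosphatase gene, listed as ACPP, was at 130 to 154 CPM in LNCaP and at 12.2 to 15.5 CPM in C4-2 (log2FC -3.39 ± 0.10), and the serine protease gene HPN had a log2FC of -1.31. The lineage factors FOXA1 (log2FC -0.49 ± 0.08, adjusted p = 3.98e-04) and HOXB13 (-0.18 ± 0.08, adjusted p = 0.0816) were not called, FOXA1 because its difference was under the size threshold.

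Markers of other lineages were mixed in level. Of 25 mesenchymal genes 8 stayed under 1 CPM in all 6 libraries. That list summed to 846 to 882 CPM in LNCaP, most of it from the single gene FN1, and to 467 to 610 CPM in C4-2. The basal list summed to 210 to 223 and 287 to 336 CPM. Of 17 basal markers, 11 stayed under 1 CPM in all 6 libraries, 6 were tested, and CDH3 alone was called. Of 28 neuroendocrine markers 9 were tested, of which 1 was higher and 4 were lower (median -0.87), and 19 stayed under 1 CPM. SYT4, a synaptotagmin gene, was at 224, 232 and 213 CPM in LNCaP and at 1.39, 2.08 and 0.63 CPM in C4-2 (log2FC -7.11 ± 0.17, adjusted p = 8.17e-10), and it made up most of the list's summed level in LNCaP (387 to 413 CPM). In C4-2 the sum was 119 to 134 CPM, most of it from REST, a repressor of neuronal genes (76.7 to 98.2 CPM, log2FC -0.37, not called). ENO2 (log2FC -1.29), UCHL1 (-2.57) and NCAM1 (-2.97) were lower as well, and SYT1 was higher (2.22). UCHL1 was uneven in LNCaP, at 1.51, 4.64 and 6.575 CPM. NCAM1 was at no more than 2.05 CPM and SYT1 at no more than 2.02 CPM in any library. Of 15 mesenchymal genes tested, 3 were higher and 4 lower, while 10 had a positive and 5 a negative log2FC (median 0.34). Fibronectin, FN1, was at 493 to 545 CPM in LNCaP and at 104 to 141 CPM in C4-2 (log2FC -2.09 ± 0.11), vimentin, VIM, averaged 8.65 and 1.83 CPM, and the transcription factor gene TWIST1 was at 3.35 to 5.94 CPM in LNCaP with 0 counts in C4-2. LOX, S100A4 and TNC were higher in C4-2, each under 3 CPM. The 10 immune markers summed to 0.29 to 0.94 CPM in LNCaP and to 4.11 to 4.82 CPM in C4-2, where the leukocyte phosphatase gene PTPRC was at 3.44, 2.51 and 1.89 CPM against 0.05 to 0.12 CPM. Both tested immune markers, PTPRC and CSF1R, were higher in C4-2, but the call of CSF1R (log2FC 2.00) was lost without LNCaP replicate 2 (2.04), LNCaP replicate 3 (1.45), C4-2 replicate 1 (2.06) or C4-2 replicate 2 (1.63). The 6 endothelial markers, of which 1 was tested and none called, summed to 13.7 to 15.6 CPM and 6.0 to 10.03 CPM, and the 10 fibroblast markers, with 1 of 3 tested higher and 1 lower, to 20.7 to 23.3 CPM and 34.7 to 43.5 CPM. The part of such cells in the values above was not tested.

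Few proliferation genes reached the size threshold for a call, and the share called was near the 10.8% of all genes that were called higher. Of 25 mitosis genes, 23 had a positive log2FC (median 0.53) and 3 were called, all higher, namely AURKA (log2FC 1.46), BIRC5 (1.06) and CDC20 (1.02). BIRC5 lost its call without LNCaP replicate 2 (0.97) or C4-2 replicate 3 (0.98), and CDC20 without LNCaP replicate 1 (1.00 when rounded), LNCaP replicate 2 (0.92) or C4-2 replicate 1 (0.92). Of 28 S phase genes, 24 were positive (median 0.30) and 2, CDT1 and RFC3, were called higher. By the adjusted p under 0.05 alone, 19 mitosis and 17 S phase genes were higher and 0 of either list lower. The same rule gave 4822 higher and 4700 lower of all 16351 genes tested. In the second set, with R1881, the medians were 0.13 and -0.03 and no member of either list was called. Of 16 fatty acid synthesis genes 3 were higher and none lower (median 0.67), led by the desaturase gene FADS2 at 342 to 382 CPM in LNCaP and 1360 to 1452 CPM in C4-2 (log2FC 1.93 ± 0.07), FADS1 (1.62) and the elongase gene ELOVL7 (1.502). Of 21 cholesterol synthesis genes 3 were higher and none lower (median 0.04). Among these, INSIG1, a sterol sensor, was 2.89-fold higher. Where R1881 was present, the fatty acid median was -0.04 and the cholesterol median -0.33.

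Among genes of glucose use, 21 of 25 had a positive log2FC (median 0.46), with 3 called higher and 3 lower. The lactate and monocarboxylate exporter gene SLC16A3 was at 3.204, 2.02 and 2.23 CPM in LNCaP and at 219, 213 and 191 CPM in C4-2 (log2FC 6.44 ± 0.14, adjusted p = 6.35e-10). The related transporter gene SLC16A1 went the other way, at 283 to 286 CPM in LNCaP and 56.9 to 74.5 CPM in C4-2 (log2FC -2.18 ± 0.10). LDHB, a lactate dehydrogenase subunit, was at 46.9, 67.3 and 80.3 CPM and at 501, 453 and 500 CPM, and the hexokinase gene HK1 was 2.48-fold higher. The transporter SLC2A12 and the enolase ENO2 were lower. Under R1881, 4 were higher and 3 lower.

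Receptors and ligands differed in both directions. Of 25 growth factor receptor tyrosine kinases tested, 7 were higher and 5 lower. FGFR2 was at 0.94 to 1.53 CPM in LNCaP and at 9.12 to 10.7 CPM in C4-2, and FGFR1 at 15.3 to 17.0 CPM and 1.94 to 2.84 CPM, so these related fibroblast growth factor receptors changed in opposite directions (log2FC 2.86 and -2.85). The ephrin receptors EPHA3 (8.39 to 10.96 CPM and 67.7 to 70.1 CPM) and EPHA7 (251 to 289 CPM and 16.3 to 18.9 CPM) did so as well. Of 30 nuclear receptors, 8 were higher and 6 lower (median 0.54). NR2F1, an orphan receptor also called COUP-TF1, was at 1.04, 1.88 and 2.52 CPM in LNCaP and at 64.6, 57.8 and 61.9 CPM in C4-2 (log2FC 5.01 ± 0.20, adjusted p = 2.74e-08). The mineralocorticoid receptor NR3C2 (1.84), the retinoic acid receptor RARG (2.06) and ESRRA (1.47) were higher. The progesterone receptor PGR (-1.76), RORA and PPARG were lower. The glucocorticoid receptor NR3C1 was at 0.79 to 1.53 CPM and 0.12 to 0.63 CPM (log2FC -2.41), a call that was lost without LNCaP replicate 3 (-1.87), C4-2 replicate 1 (-2.02) or C4-2 replicate 2 (-1.86). Of 32 WNT pathway genes 11 were higher and 3 lower (median 0.39), including the frizzled receptors FZD2 (log2FC 3.77) and FZD4 (2.67) and the ligand WNT8B (3.27), while WNT2B (-1.38) was lower. WNT6 had 0 counts in LNCaP and 0.63 to 1.65 CPM in C4-2. Of 29 BMP, TGF-beta and ID genes 2 were higher (INHBB, 2.51, and SMAD6, 1.83) and 3 lower (among them GDF15, -2.16, and BMPR1B, -2.01).

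Of 24 integrin and laminin genes, which code for matrix receptors and basement membrane chains, 10 were higher and 4 lower (median 0.53). The chains LAMB1 (5.47 to 7.75 CPM in LNCaP and 82.7 to 96.0 CPM in C4-2) and LAMC3 (1.04 to 1.70 and 24.6 to 27.1 CPM) and the collagen-binding subunit ITGA2 (4.90 to 6.22 and 61.9 to 63.2 CPM) were higher. The common beta subunit ITGB1 was at 433 to 473 CPM in LNCaP and at 151 to 166 CPM in C4-2 (log2FC -1.51 ± 0.07), and LAMB2 (-1.89) and LAMA3 (-1.59) were lower. Cadherin, claudin and tight junction genes gave 5 higher and 4 lower of 25, with CDH3, CLDN3 and TJP3 higher and CLDN8 and CLDN12 lower.

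Of 24 interferon-stimulated genes, 5 were higher and 4 lower (median 0.295), whereas with R1881 2 were higher and 8 lower (median -0.69). BST2, which tethers enveloped virus particles, was at 0.75, 1.04 and 1.06 CPM in LNCaP and at 166, 141 and 161 CPM in C4-2 (log2FC 7.30 ± 0.13, adjusted p = 1.73e-10). IRF7, an interferon-response transcription factor, was at 8.20 to 10.5 CPM and at 55.6 to 61.7 CPM, and HERC5 (-2.51), IFIT5 (-1.24) and IFI44 (-1.22) were lower. Of 18 class I antigen presentation genes the immunoproteasome subunit PSMB8 (log2FC 3.32) and the peptidase ERAP2 (1.24) were higher and none was lower. Of 22 p53 target genes 3 were higher and 5 lower. SESN1 was at 224 to 252 CPM in LNCaP and at 44.6 to 45.8 CPM in C4-2, and TP53INP1 (-2.31), GDF15 (-2.16) and BBC3 (-1.31) were lower, whereas SPATA18 (2.23) and TP53I3 (1.33) were higher.

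Prostate cancer long noncoding RNAs were lower in 6 and higher in 3 of 13 tested (median -0.62). SCHLAP1 was at 44.7, 54.0 and 45.9 CPM in LNCaP and at 0.72, 1.47 and 0.63 CPM in C4-2 (log2FC -5.53 ± 0.23, adjusted p = 3.61e-08). PCAT1 was at 61.9 to 66.6 CPM and 5.32 to 9.47 CPM, and PCGEM1 at 2.36 to 2.86 CPM in LNCaP with 0 counts in C4-2. PCA3, ARLNC1 and H19 were higher, each under 3 CPM. Of 12 tested with R1881, none was higher and 8 were lower (median -1.88), with PCA3 (-1.67) and ARLNC1 (-1.47) among the lower. Some lists held hardly any call. None of 19 histone lysine demethylases, 22 steroid receptor chaperones and coregulators and 8 mismatch repair genes was called, and TET1 (log2FC -1.78), a DNA demethylase, was the one call among 25 Polycomb and DNA methylation genes. KDM1A had a log2FC of 0.14 ± 0.07 (adjusted p = 0.106) and KDM7A of 0.42 ± 0.08 (adjusted p = 0.0016, 39.6 to 46.2 CPM in LNCaP and 54.3 to 60.6 CPM in C4-2). At an adjusted p under 0.05 without the size threshold, 7 chaperone and coregulator genes were higher and 3 lower, and 4 demethylases were higher and 8 lower. When LNCaP replicate 1 and C4-2 replicate 3 were left out, 1 demethylase was called higher and 1 lower.

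**Figure D2:**
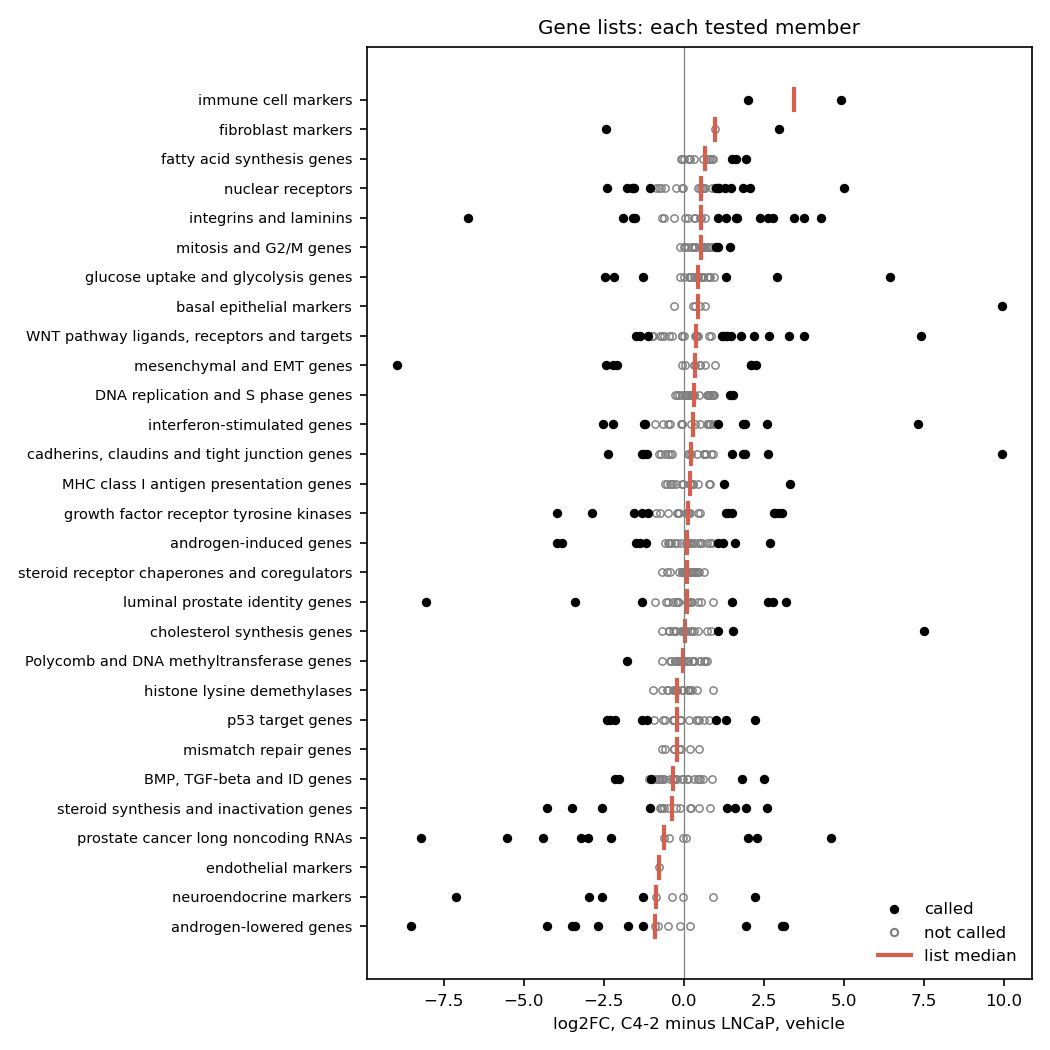
Each point is the log2FC (C4-2 minus LNCaP, vehicle libraries) of one tested member of a gene list, filled where called and open where not, and the red bar is the list median. Medians of most lists lay within 1 log2 unit of 0 while the fitted values of single members reached -8.96 (TWIST1, at 0 counts in C4-2) and 9.93 (CDH3).

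Calls were not spread evenly over the chromosomes. On chromosome 7, 24.6% of 866 genes tested were higher in C4-2 and 6.12% lower, with a median log2FC of 0.47, and 71.5% of the genes had a positive log2FC. On chromosome 13, 25.2% of 290 genes were higher and 6.21% lower. On chromosome 19 the direction was the opposite, with 5.49% of 1220 genes higher and 25% lower (median -0.29), and the medians of chromosomes 18 (-0.38), 4 (-0.34) and 8 (-0.30) were also low. In the libraries with R1881, the medians were 0.56 on chromosome 7, -0.33 on chromosome 19, -0.34 on chromosome 18 and -0.35 on chromosome 4. Without LNCaP replicate 1 and C4-2 replicate 3 they were 0.45, -0.25, -0.42 and -0.36. These are descriptions of position, and a change in gene copy number and a change in transcription per copy cannot be told apart in these data.

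**Figure D3:**
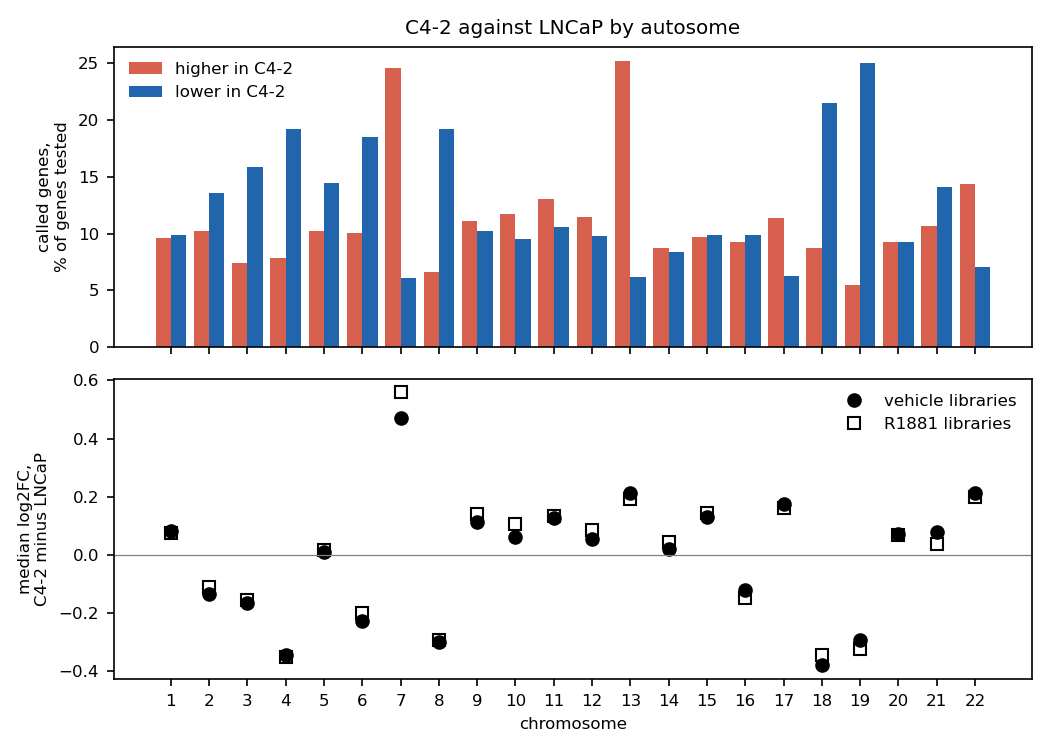
The upper panel gives the percent of tested genes called higher (red) and lower (blue) in C4-2 on each autosome, and the lower panel the median log2FC (C4-2 minus LNCaP) in the vehicle (filled) and R1881 (open) libraries. Chromosomes 7 and 13 had the most genes called higher (24.6% and 25.2%) and chromosome 19 the most called lower (25%), and the vehicle and R1881 medians lay close together on each chromosome.

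Within chromosomes the differences lay in blocks. When the tested genes were cut into 318 blocks of 50 consecutive genes, the quartiles of the block medians were -0.20 and 0.20. The highest median was 0.97, at chr13:27270327-41061440, where 25 of 50 genes were higher and 0 lower. The first block of chromosome 13 had a median of 0.81, and the blocks of its remainder lay near 0. On chromosome 7 the later blocks had medians of up to 0.92, the highest at chr7:100119613-101559024 with 23 of 50 genes higher and 1 lower. The lowest medians were on chromosome 19, -1.59 at chr19:20746923-29824308 (36 of 50 lower, 1 higher) and -1.23 at chr19:55600022-57402992 (30 lower, 0 higher). All coordinates are GRCh38.

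**Figure D4:**
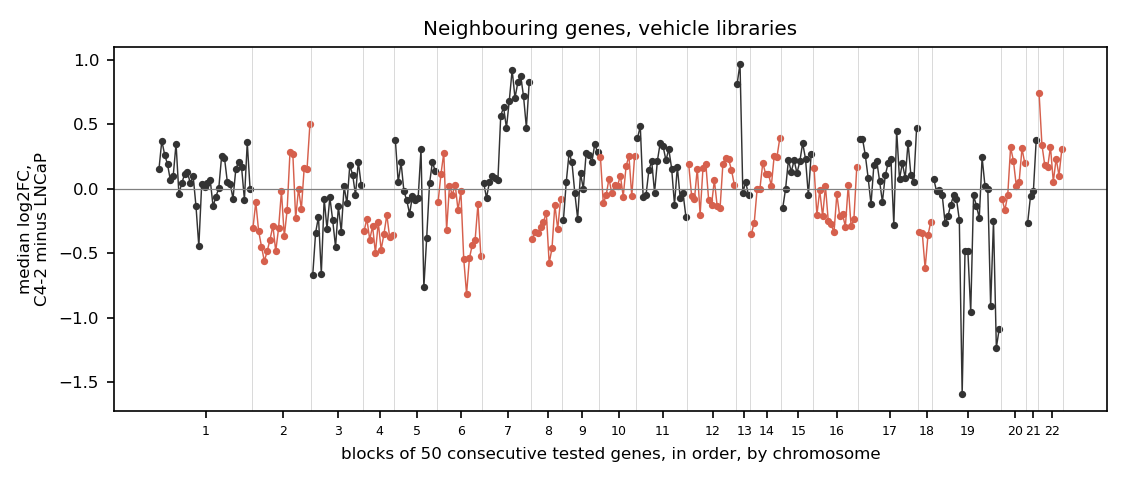
Each point is the median log2FC (C4-2 minus LNCaP, vehicle libraries) of 50 consecutive tested genes, in order along each autosome, with alternating colours for neighbouring chromosomes. Block medians reached 0.92 in the later part of chromosome 7, 0.97 early on chromosome 13 and -1.59 on chromosome 19.

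Stretches of at least 3 neighbouring tested genes called in the same direction numbered 210 (93 higher, 117 lower in C4-2) and held 891 genes, 23.3% of the calls. Of these stretches 7 had 10 genes or more, of which 5 lay on chromosome 19, and 28 of the 29 stretches on chromosome 19 were lower in C4-2. On chromosome 7, 19 of 22 stretches were higher, and on chromosome 13 all 8 were. The longest stretch with higher values held 13 genes at chr13:28659104-32400266, from POMP to BRCA2. Within it, the homologous recombination gene BRCA2 averaged 42.1 ± 3.51 CPM in LNCaP and 142 ± 13.6 CPM in C4-2 (log2FC 1.74), the cationic amino acid transporter gene SLC7A1 168 ± 5.78 and 526 ± 27.5 CPM (1.65), and the chromatin protein gene HMGB1 278 and 622 CPM. HGF, SEMA3E and AC008163.1 lay together with SEMA3C, SEMA3A, CACNA2D1, PCLO and DDX43P3 in a stretch of 8 genes at chr7:80742538-84492724, all higher in C4-2. Another 8 genes at chr2:240686334-241095568 were higher, including MAB21L4 (1.94 ± 0.24 and 240 ± 17.9 CPM) and the liver enzyme gene AGXT (0.49 and 23.5 CPM). A stretch at chr2:94759259-94961503 was also higher in 8 genes, but it consists mostly of ANKRD20A8P and other copies with near-identical relatives, whose counts are uncertain. At chr2:187343129-189179879, 7 genes were lower, among them the coagulation inhibitor gene TFPI (139 ± 4.93 and 4.63 ± 0.37 CPM) and the engulfment adaptor gene GULP1 (671 ± 19.9 and 24.8 ± 1.14 CPM). OR51E1 and OR51E2 lay in 6 lower genes at chr11:4598672-5524955, and H19, IGF2 and ASCL2 in 7 higher genes at chr11:1752752-2270952.

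The longest stretch overall was the protocadherin cluster of chromosome 5, 29 genes lower in C4-2 at chr5:141094578-141512981 (median log2FC -6.18). All 14 beta protocadherins tested were lower (median -6.80, or -5.86 with members at 0 counts set to their bound), summing to 90.0 to 96.5 CPM in LNCaP. PCDHB5 was at 29.1, 24.1 and 26.2 CPM in LNCaP and at 0.06, 0.12 and 0.32 CPM in C4-2 (log2FC -7.82 ± 0.30, adjusted p = 1.97e-08), and PCDHB2 at 16.03 to 17.04 CPM and 0 to 0.17 CPM. No beta protocadherin overlapped between the lines, and neither did 65% of all genes tested. TAF7, a general transcription factor gene that lies inside the cluster and is no protocadherin, was at 214, 224 and 212 CPM in LNCaP and at 94.0, 87.0 and 124 CPM in C4-2, a smaller difference (log2FC -1.11 ± 0.12). Of 21 gamma protocadherins 19 were lower and 2, PCDHGA8 (log2FC -0.44) and PCDHGC3 (-0.65), were not called (median -3.05). The gamma genes share constant exons and overlap each other, so reads in the shared part could not be assigned to one of them and their counts are uncertain. In libraries given R1881, 10 beta protocadherins passed the filter and all 10 were lower. Genes that stayed near 0 in C4-2 could pass only through LNCaP, so this direction was largely set by the filter.

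Promoters of beta protocadherins are printed because the beta genes were near 0 in C4-2 (0.32 to 0.73 CPM in sum) and the sequences share a stretch. In capitals is GGTGGCGCTG, the 10-base run present in the most beta protocadherin promoters (chr5:141094365-141094664, plus strand, chr5:141134956-141135255, plus strand and chr5:141245145-141245444, plus strand, GRCh38.p14, RefSeq).
PCDHB2: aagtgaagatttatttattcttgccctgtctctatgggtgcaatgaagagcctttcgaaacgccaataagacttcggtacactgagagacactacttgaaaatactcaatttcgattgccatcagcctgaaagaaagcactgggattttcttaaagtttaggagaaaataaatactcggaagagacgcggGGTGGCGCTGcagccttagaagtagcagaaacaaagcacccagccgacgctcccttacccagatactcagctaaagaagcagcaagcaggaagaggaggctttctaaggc
PCDHB5: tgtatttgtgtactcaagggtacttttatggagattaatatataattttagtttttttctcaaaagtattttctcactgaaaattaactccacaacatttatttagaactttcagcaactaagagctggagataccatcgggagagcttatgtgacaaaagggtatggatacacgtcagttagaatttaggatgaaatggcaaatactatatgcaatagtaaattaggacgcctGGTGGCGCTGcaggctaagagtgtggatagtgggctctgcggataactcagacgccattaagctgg
PCDHB15: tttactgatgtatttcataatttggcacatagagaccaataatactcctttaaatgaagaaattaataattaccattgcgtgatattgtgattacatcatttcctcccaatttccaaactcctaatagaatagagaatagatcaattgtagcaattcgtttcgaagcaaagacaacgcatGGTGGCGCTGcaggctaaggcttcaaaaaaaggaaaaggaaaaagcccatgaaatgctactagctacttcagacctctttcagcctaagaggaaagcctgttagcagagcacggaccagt
On either strand this run was in 11 of the 12 beta protocadherin promoters with an entry, in 0 of 20 gamma protocadherin promoters and in 52 of 10509 promoters of autosomal genes tested (0.495%). The run was chosen for being shared, so its count among the beta genes is a description. The beta protocadherin promoters held few CG dinucleotides, with a median of 8.5 per 300 bases against 26 over all promoters.

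Zinc finger genes of chromosome 19 made up most of the other long stretches. The families were counted after these stretches had been seen. Of 240 ZNF and ZFP genes tested on chromosome 19, 136 were lower in C4-2, 1 was higher and 103 were not called (median log2FC -1.07), and 225 had a negative log2FC. Of 234 ZNF and ZFP genes on other autosomes 35 were lower and 6 higher (median -0.26), and of 980 other genes of chromosome 19, 169 were lower and 66 higher (median -0.11). The summed level of the 240 genes was 5943 to 6447 CPM in LNCaP and 2881 to 3123 CPM in C4-2. For the R1881 libraries, 129 of 238 were lower and 1 was higher, with a median of -1.07.

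The size of the difference varied among neighbours. At chr19:21358930-23874701, 25 genes were lower, 15 of them zinc finger genes. There ZNF91, a repressor of SVA transposons, averaged 106 ± 10.0 CPM in LNCaP and 33.8 ± 2.52 CPM in C4-2 (log2FC -1.67), ZNF43 67.1 ± 4.66 and 7.55 ± 0.43 CPM (-3.14), and ZNF676 3.70 CPM in LNCaP with 0 counts in C4-2. At chr19:56375846-56626481, 14 genes were lower, among them ZNF471 (55.8 ± 4.58 and 2.74 ± 0.39 CPM), ZNF667 (34.7 ± 1.06 and 2.20 ± 0.14 CPM), ZFP28 and ZNF470, and PEG3 lies farther along the same chromosome arm. At chr19:11939959-12237767, 10 genes were lower, of which ZNF844 was at 41.6 ± 1.59 CPM in LNCaP and at 0.39 ± 0.14 CPM in C4-2 (log2FC -6.59 ± 0.20, adjusted p = 3.49e-09). Stretches of 12 genes at chr19:19785839-20950697 and 11 genes at chr19:36773153-37265535 were lower too. Zinc finger genes have close paralogs, and reads that fit several copies were not counted.

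ZNF667 and ZNF844 promoters are given with CG dinucleotides in capitals, to show that genes lower in C4-2 had starts of unlike composition (chr19:56477296-56477595, minus strand and chr19:12064481-12064780, plus strand, GRCh38.p14, RefSeq).
ZNF667: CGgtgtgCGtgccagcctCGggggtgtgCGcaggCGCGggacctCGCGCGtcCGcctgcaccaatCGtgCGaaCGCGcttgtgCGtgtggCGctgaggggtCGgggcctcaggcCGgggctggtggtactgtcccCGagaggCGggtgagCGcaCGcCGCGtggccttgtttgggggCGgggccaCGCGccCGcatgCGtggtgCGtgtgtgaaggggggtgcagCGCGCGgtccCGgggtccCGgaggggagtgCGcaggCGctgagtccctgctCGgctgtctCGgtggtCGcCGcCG
ZNF844: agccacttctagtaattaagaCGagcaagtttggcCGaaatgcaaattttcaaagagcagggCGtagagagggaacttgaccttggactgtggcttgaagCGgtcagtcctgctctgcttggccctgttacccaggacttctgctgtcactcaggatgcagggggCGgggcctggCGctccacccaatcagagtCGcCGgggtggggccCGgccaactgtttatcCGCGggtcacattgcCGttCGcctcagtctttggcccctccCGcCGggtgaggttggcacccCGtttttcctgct
The first held 42 CG dinucleotides and the second 16. The RefSeq start used for ZNF667 lay 720 bases from the gene start in the annotation used for counting, and that for ZNF844 32 bases. Over 113 lower zinc finger genes of chromosome 19 with a promoter entry the median was 19, and over 90 that were not called it was 22.5. Over genes at the floor in C4-2, which include beta protocadherins, it was 12. Genes at the floor in LNCaP had a median of 24 and all promoters one of 26. DNA methylation was not measured in these libraries.

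**Figure D5:**
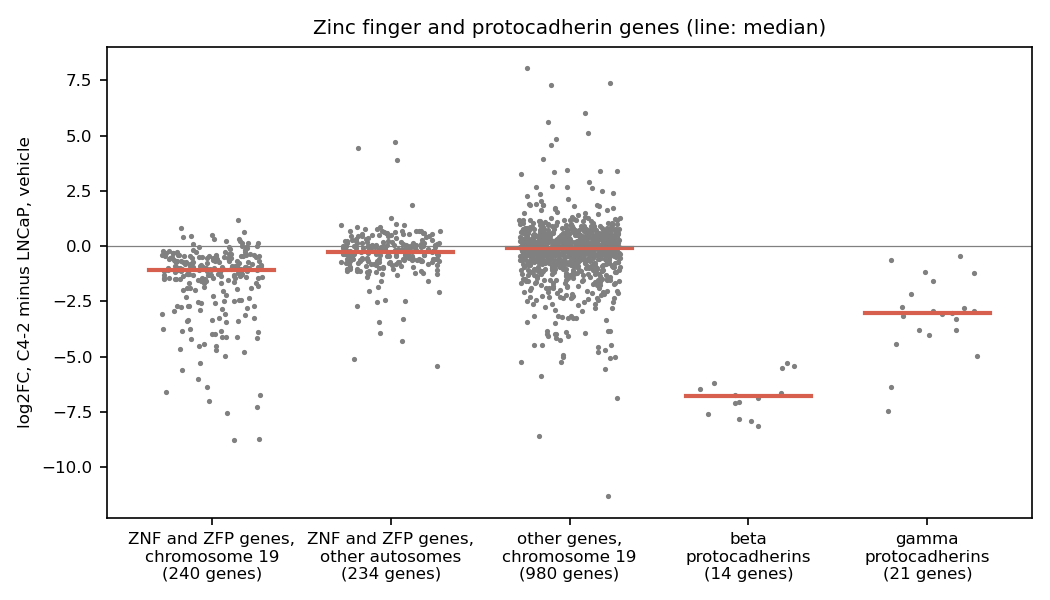
Each point is the log2FC (C4-2 minus LNCaP, vehicle libraries) of one tested gene, spread sideways for clarity, and the red line is the median of the group. Medians were -1.07 for zinc finger genes of chromosome 19, -0.26 for those of other autosomes, -0.11 for the other genes of chromosome 19, -6.80 for beta and -3.05 for gamma protocadherins.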

How the data were processed

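Total RNA was sequenced from polyA-selected paired-end libraries. Per the methods, adapters were removed by TrimGalore and STAR placed the reads on GRCh38. FeatureCounts (1.5.0-p1 in the file headers) then counted read pairs per Ensembl gene. The deposited values were raw counts per gene and library, made by the authors without normalisation. No strand option was given to the counter, so overlapping antisense genes cannot be told apart, and read pairs that fitted several genes were not counted. Symbols came from GENCODE 29.

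Libraries were grouped by title. The 6 vehicle libraries were fitted with edgeR 4.0.16 (filterByExpr with a minimum count of 10 and a minimum total of 15, TMM, quasi-likelihood F-test, 2-sided, Benjamini-Hochberg over all 16976 genes that passed). Only autosomal genes were counted. Totals ran from 3182604 to 20154243 counts, and 1 count in the smallest library was worth about as much as several in the others. Counting intervals are exact (Clopper-Pearson) and cover counting error only. With 3 libraries a group, an exact permutation test of a single value cannot go below 0.1. The scripts were tested on simulated data.

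Genes were named if autosomal, called, at a mean of at least 5 CPM, without overlap between the lines, and called in all 7 fits with libraries left out (the 12 largest each way), or were listed androgen and demethylase genes, members of 29 gene lists (at most 4 each way), floor genes or members of long stretches. The members and lists were chosen with earlier results of these data known. Genes of the stretches, block medians, the zinc finger and protocadherin families and the 10-base promoter run were picked after their values were seen. Results of some genes are not reported here. Promoters were matched by symbol for 10509 of the 16351 genes.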

Additional observations from a re-analysis of the deposited data

Results flagged for a closer look

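The line difference (log2FC, C4-2 minus LNCaP) had opposite signs with vehicle and with R1881 for 10 named genes whose difference also changed in edgeR's test over the 12 siScr libraries (adjusted p under 0.05 and a change of at least 1). The change, R1881 minus vehicle, was -2.32 for ABCC4, -3.78 for ARLNC1, -1.64 for CENPN, -2.21 for ELOVL7, -1.88 for ERAP2, -2.21 for IRF1, -3.42 for OAS1, -3.66 for PCA3, -1.04 for TMPRSS2 and -3.05 for UGT2B28. All 10 changes were negative, but these genes were picked among named genes by their opposite signs. The share of negative changes over all genes was not counted, so no background for this direction is given. ABCC4 averaged 149 ± 4.72 CPM in LNCaP and 452 ± 29.8 CPM in C4-2 with vehicle, and 1521 ± 108 CPM and 923 ± 9.92 CPM with R1881 (SD, n = 3). UGT2B28 averaged 3.02 and 11.53 CPM with vehicle, and 228 ± 40.6 CPM and 103 ± 2.49 CPM with R1881. IRF1 averaged 4.97 ± 0.29 CPM and 17.8 ± 0.79 CPM with vehicle, and 3.40 ± 0.85 CPM and 2.61 ± 0.09 CPM with R1881. TMPRSS2 was not called in the vehicle libraries.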

How the results depend on the processing

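With 1769 genes higher, 2049 lower and 210 stretches as reported, the counts were 1083, 1144 and 108 with glmTreat against a 2-fold change, 4822, 4700 and 880 with the adjusted p alone, 908, 845 and 64 with at least 10 counts in every library (a filter that removes genes near 0 in one line), and 1092, 1285 and 107 after thinning every library to the depth of the smallest. Stretches of 4 or more genes numbered 92, and the floor sets of 57 (LNCaP) and 72 (C4-2) genes held 24 and 20 with 0 counts. Without one library, 1584 to 1974 genes were higher, 1742 to 2261 lower, and 167 to 256 stretches were found. Without LNCaP replicate 1 and C4-2 replicate 3 the counts were 1994, 2261 and 247. RLE factors, DESeq2, the likelihood ratio test, no filter, all 18 libraries, autosomal genes alone and no pseudogenes kept the counts within 1.5 times. Replicate numbers did not pair the libraries (correlation of same-numbered deviations -0.469, 0.361 and -0.402), and a replicate block gave 1688 higher, 1970 lower and 201 stretches. No named gene changed direction. The depth of the smallest library, C4-2 replicate 3, limits the precision at low levels, although 661 of the called genes averaged under 1 CPM.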
